A study of Rattus norvegicus with 18 samples.

Results

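RNA levels of 10 genes used as markers of what macrophages do were followed in bulk renal tissue after ureter ligation: Trem2, Gpnmb, Mrc1, Cd163, Clec10a, Msr1, Cd68, Lyz2, Apoe and Pf4. Each gene was taken by its name in the deposited expression table, where all 10 of the 30957 listed genes were found on 1 row each and all 10 passed the filter on low counts. The samples were renal parenchyma of rats whose left ureter had been tied with silk under ketamine, with 5 libraries from 1 day of obstruction, 5 from 3 days, 5 from 7 days and 3 that are labelled 14 days. The sources used here give no strain, sex or age, nor is it stated which kidney each library came from. All libraries carry the same batch label. In the deposited table, whose genome build is not named, Trem2 (ENSRNOG00000013578) lies on chromosome 9 from 14611561 to 14618013 and Lyz2 (ENSRNOG00000005825) on chromosome 7 from 60335969 to 60341264. Gpnmb (ENSRNOG00000008816) and Cd163 (ENSRNOG00000010253) share chromosome 4, starting at 78694447 and 156752082, and Cd68 (ENSRNOG00000037563) and Clec10a (ENSRNOG00000018715) share chromosome 10, starting at 56268720 and 56764927. The sham group that the design names was not analysed here, so each comparison is between durations of obstruction and none is with an unobstructed kidney. Since no label says that the libraries of a group came from different animals, the tests rest on the spread from library to library, and some of that spread may be technical.

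Tissue macrophages descend from blood monocytes or from cells seeded before birth, and they take on different gene programmes as an injury runs its course. TREM2 is a surface receptor for lipids and cell debris that signals through the adaptor TYROBP, and together with apolipoprotein E, CD68 and GPNMB it marks lipid-handling, lysosome-rich macrophages in injured and scarring organs. MRC1 (the mannose receptor CD206), CD163 (the scavenger receptor for haptoglobin-bound haemoglobin) and CLEC10A (a lectin that binds galactose-type sugars) mark resident and alternatively activated macrophages. MSR1 is a scavenger receptor for modified lipoproteins, LYZ2 the lysozyme of phagocytes, and PF4 a chemokine best known from platelets and also made by resident macrophages. Several of these genes are also used by other kidney cells: GPNMB by stressed lysosome-rich epithelium and pigment cells, MRC1 by some endothelium, and APOE by many cell types.

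Promoter sequence is shown for 3 members that rose during obstruction, Trem2, Lyz2 and Mrc1, and for Gpnmb, which did not, because the results turn on that contrast. RefSeq's GRCr8 table held a window from 250 bases before to 50 bases after the start for 7 of the 10 members. These were searched on both strands for GAGGAA (the core bound by the myeloid factor PU.1), TGANTCA (AP-1), and TCATGTG or TCACGTG (the M-box of MITF-family factors), and matches, which never overlapped each other, are in capitals. Sequences run 5′ to 3′ along the gene's own strand.
Trem2 promoter, chr9:20151730-20152029, minus strand: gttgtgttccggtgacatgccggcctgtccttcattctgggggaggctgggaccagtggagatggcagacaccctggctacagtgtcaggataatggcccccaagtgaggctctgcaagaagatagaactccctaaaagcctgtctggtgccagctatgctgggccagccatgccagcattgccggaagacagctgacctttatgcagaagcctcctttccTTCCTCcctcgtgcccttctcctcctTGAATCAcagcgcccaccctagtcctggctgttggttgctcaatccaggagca
Lyz2 promoter, chr7:54797962-54798261, minus strand: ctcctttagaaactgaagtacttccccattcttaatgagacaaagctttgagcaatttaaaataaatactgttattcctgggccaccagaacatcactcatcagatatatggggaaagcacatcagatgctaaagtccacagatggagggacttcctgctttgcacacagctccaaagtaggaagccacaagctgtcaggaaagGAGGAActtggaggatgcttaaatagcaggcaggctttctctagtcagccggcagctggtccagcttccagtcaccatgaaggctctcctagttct
Mrc1 promoter, chr17:82157475-82157774, plus strand: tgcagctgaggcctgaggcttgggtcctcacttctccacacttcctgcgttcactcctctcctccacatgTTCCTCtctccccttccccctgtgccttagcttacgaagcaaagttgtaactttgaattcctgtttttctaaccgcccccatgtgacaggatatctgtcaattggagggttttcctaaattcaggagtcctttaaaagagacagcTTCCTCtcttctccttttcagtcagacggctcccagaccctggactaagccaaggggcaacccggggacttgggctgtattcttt
Gpnmb promoter, chr4:79340878-79341177, plus strand: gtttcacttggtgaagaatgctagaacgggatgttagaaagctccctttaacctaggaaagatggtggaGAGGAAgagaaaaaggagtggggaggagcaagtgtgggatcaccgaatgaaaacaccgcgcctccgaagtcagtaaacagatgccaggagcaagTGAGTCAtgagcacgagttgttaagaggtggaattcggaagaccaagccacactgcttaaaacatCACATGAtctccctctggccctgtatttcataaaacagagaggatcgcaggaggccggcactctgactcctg
GAGGAA or its reverse complement was found for 6 of the 7 members, Gpnmb among them, and in 27.6% of the 33469 promoters in the table. For Apoe it was found in 1 of its 3 windows, whereas the shares over the table count each window singly. AP-1 letters were found for Trem2, Gpnmb and Cd68 (3 of 7, against 7.33% of all promoters). M-box letters were found for Gpnmb and for 1 of the 3 windows of Apoe (2 of 7 members, against 6.67%). The Cd163 window held none of these letters. Matches describe the letters only and show no binding.

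The libraries held between 5488540 and 12049915 counts, and the 10 genes together took between 0.0183% and 0.536% of them. Levels are given as the deposited FPKM (counts scaled to gene length and to the library's total), which allow genes to be compared per length. Macrophage identity rests on 12 general macrophage genes, such as the CSF1 receptor Csf1r, the complement chain C1qa and the adaptor Tyrobp; all 12 had counts in each group, and Csf1r stood at 9.23 to 66.5 FPKM at 1 to 7 days. The 3 libraries labelled 14 days stood apart. Mitochondrial genes took 24.0%, 27.4% and 14.4% of their counts, against 7.11% to 13.6% in the other 15, and the part of this share in the results was not tested. In them the injury gene Havcr1 lay at 0.317 to 7.45 FPKM against 188 to 1040 in the other 15, and Spp1 (osteopontin) at 36.8 to 258 against 5641 to 15440. They also differed from each other: replicate 2 held the proximal tubule gene Lrp2 at 191 FPKM and Umod of the loop at 2270, while replicate 3 held Lrp2 at 2.91 and the fat cell genes Plin1 at 142 and Cfd at 232. Replicate 5 at 1 day stood apart from its group in part of these genes. Plin1 was at 6.41 FPKM against at most 0.0893 in the other 4, and Cfd at 18.1 against 0.252 to 3.25. Adipoq was at 6.85 against 1.35 to 3.10, and summed endothelial markers were at 123 against 33.1 to 44.6. The 6 fat cell markers together summed to 53.1 against 44.1 to 101. That sum also holds Cidec, Lep and Pck1 and does not follow Plin1, Cfd and Adipoq. Results that rest on these libraries are therefore also given without them.

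Between 1 and 7 days of obstruction, 6 of the 10 genes rose: Clec10a 19.7-fold, Trem2 13.0-fold, Mrc1 6.12-fold, Pf4 6.04-fold, Lyz2 4.91-fold and Apoe 2.18-fold (edgeR quasi-likelihood test, Benjamini-Hochberg adjusted p from 0.000211 to 0.0242). None of the 10 fell, Gpnmb having the only negative estimate (unadjusted p = 0.106). Over all 14511 genes tested, 25.6% were called in this comparison and 12.3% were called higher. The median log2 fold change of the 10 was 1.89, against 0.01 over all genes tested. Of the 10 genes, 6 lay at 7 days above every library at 1 day, an upward separation seen for 14.3% of all genes tested. They were the same 6 that were called, on the same libraries, so the separation is no independent support for the calls. These are bulk samples, in which more macrophages and more RNA of a gene per macrophage cannot be told apart.

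**Figure D1:**
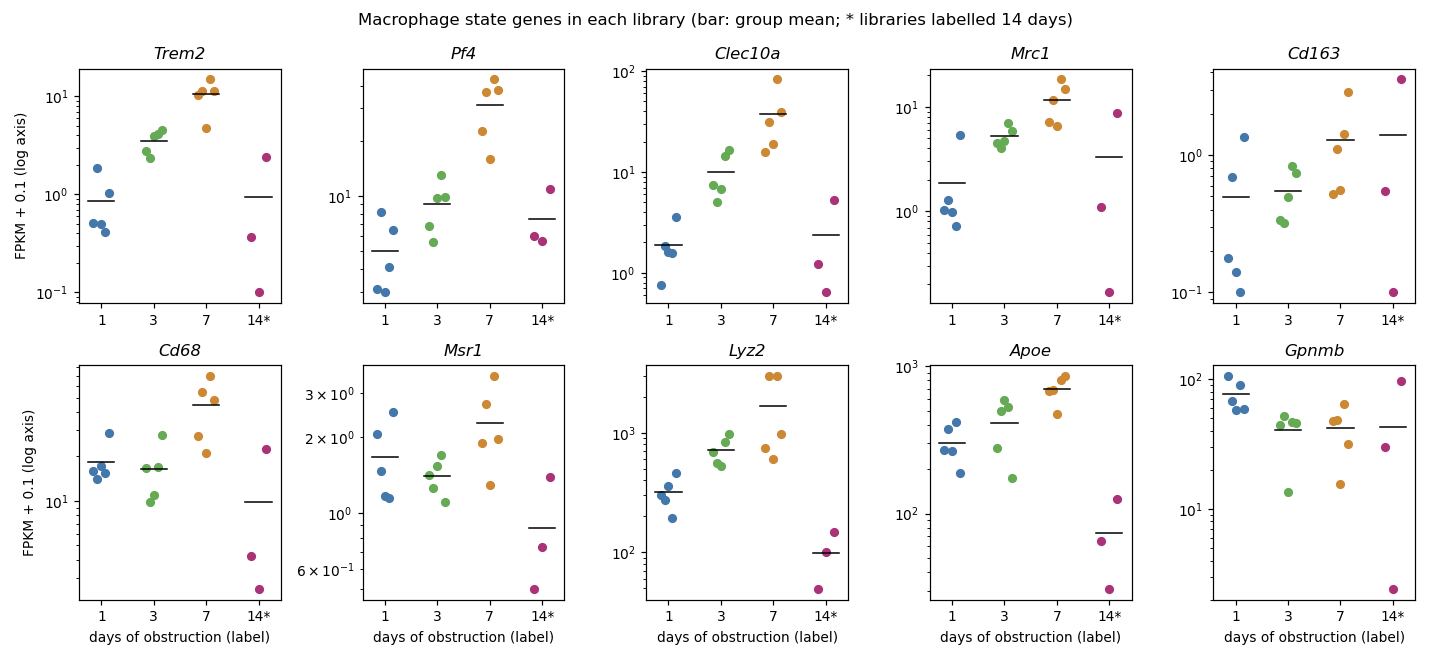
FPKM plus 0.1 on a log axis for each of the 10 genes, with 1 point per library at 1, 3, 7 and (as labelled) 14 days and a bar at the group mean. Trem2 stood at 0.315 to 1.77 FPKM at 1 day and 4.63 to 14.8 at 7 days, while Gpnmb stood at 57.7 to 105 and 15.5 to 64.3.

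Trem2 climbed through the series from a level near the limit of counting. Its FPKM were 0.412, 1.77, 0.395, 0.315 and 0.928 at 1 day, 2.65, 2.25, 3.83, 4.02 and 4.45 at 3 days, and 10.3, 11.3, 4.63, 14.8 and 11.3 at 7 days. No library at 3 days overlapped with 1 day, and none at 7 days overlapped with 3 days. The counts behind these values were 2 to 12 at 1 day, 18 to 40 at 3 days and 48 to 115 at 7 days, so that the level at 1 day is imprecise. Trem2 differed by 3.70 ± 0.58 on the log2 scale (± SE throughout) between 7 and 1 days (adjusted p = 0.000503). The 2 steps taken singly, 2.17 ± 0.58 from 1 to 3 days and 1.53 ± 0.51 from 3 to 7 days, missed the threshold in the fit of all 18 libraries (edgeR adjusted p = 0.0604 and 0.126) and passed it without the libraries labelled 14 days (0.0074 and 0.0228). Leaving out replicate 2 at 1 day or replicate 2 or 3 labelled 14 days was enough for the first step (adjusted p at most 0.0407), and replicate 2 labelled 14 days for the second (0.0453).

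Clec10a, the galactose-type lectin, showed the largest fitted change of the 10 between 1 and 7 days, and it alone was called between 1 and 3 days in the fit of all 18 libraries. It stood at 0.663, 1.73, 1.52, 1.48 and 3.46 FPKM at 1 day, at 7.35, 4.91, 6.74, 14.2 and 16.3 at 3 days, and at 15.5, 31.5, 18.6, 82.8 and 39.4 at 7 days. Each library at 3 and 7 days exceeded every library at 1 day, whereas 3 and 7 days overlapped through replicate 5 at 3 days and replicate 1 at 7 days. The rise from 1 to 3 days was 5.45-fold (log2 2.45 ± 0.57, edgeR adjusted p = 0.0381) and from 1 to 7 days 4.30 ± 0.60 on the log2 scale (adjusted p = 0.000251). The first of these calls was close to its threshold: it was lost without replicate 1, 2, 3 or 4 at 1 day and without replicate 1, 3, 4 or 5 at 3 days, with an adjusted p of up to 0.101, and the fold stayed between 2.19 and 2.84 on the log2 scale. From 3 to 7 days the estimate was 1.86 ± 0.53 (adjusted p = 0.0849), which passed without replicate 2 (0.0392) or 3 (0.0476) labelled 14 days.

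Mrc1 rose between 1 and 7 days by 2.61 ± 0.72 on the log2 scale (adjusted p = 0.0140). At 1 day it stood at 0.933, 1.18, 0.890, 0.627 and 5.26 FPKM, at 3 days at 4.42, 3.91, 4.58, 6.89 and 5.73, and at 7 days at 7.12, 11.4, 6.50, 18.2 and 14.6. The value of 5.26 belonged to replicate 5 at 1 day, the library with the higher Plin1 and endothelial markers, and it lay inside the range at 3 days. Without that library the difference between 7 and 1 days was 3.56. For 3 against 1 day the fit of all libraries gave an adjusted p of 0.271, and the fit without that library and those labelled 14 days called Mrc1 higher. The part of other cells in replicate 5 was not tested.

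Cd163 was the least abundant of the 10 at 1, 3 and 7 days and was called in none of the 5 comparisons. Its range was 0 to 1.25 FPKM at 1 day, 0.220 to 0.734 at 3 days and 0.421 to 2.76 at 7 days, on counts of 0 to 75. The estimate for 7 against 1 day was 1.49 ± 0.97 on the log2 scale (adjusted p = 0.281). Replicate 5 at 1 day again held the highest level of its group. Without that library and those labelled 14 days the estimate was 2.75 (adjusted p = 0.0159). Msr1, the scavenger receptor, stood at 1.05 to 2.43 FPKM at 1 day, 1.01 to 1.61 at 3 days and 1.20 to 3.41 at 7 days, with groups overlapping throughout; the difference between 7 and 1 days was 0.38 ± 0.30 (adjusted p = 0.393).

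Among the secreted products, the lysozyme gene Lyz2 was the most abundant and rose 4.91-fold from 1 to 7 days (log2 2.30 ± 0.44, adjusted p = 0.00163). Its FPKM were 302, 276, 360, 194 and 458 at 1 day, 687, 556, 524, 841 and 974 at 3 days, and 741, 2990.0, 602, 2985 and 980 at 7 days. All libraries at 3 days lay above all at 1 day, although the difference of 1.16 ± 0.43 did not pass the test (adjusted p = 0.162). At 7 days replicates 2 and 4 stood apart from the other 3, none of which exceeded 980. Reads of Lyz2 may be shared with its lysozyme paralogue Lyc2, which was counted on a row of its own at 1.99 ± 0.34 FPKM at 1 day and 8.94 ± 4.95 at 7 days (mean ± SD over 5 libraries).

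Pf4 was the only member called between 3 and 7 days. It stood at 3.00, 8.06, 2.87, 4.01 and 6.45 FPKM at 1 day, at 6.79, 5.47, 9.59, 12.8 and 9.71 at 3 days, and at 22.5, 36.6, 15.8, 43.2 and 37.8 at 7 days. Groups at 1 and 3 days overlapped, and every library at 7 days lay above both. The rise from 3 to 7 days was 3.33-fold (log2 1.74 ± 0.33, edgeR adjusted p = 0.0282) on 12 to 29 counts a library at 3 days and 45 to 92 at 7 days, and it was lost without replicate 1, 2 or 5 at 3 days or replicate 4 or 5 at 7 days (adjusted p up to 0.0930). Because Pf4 is also a platelet gene, 8 platelet and megakaryocyte markers were read beside it. Ppbp, the chemokine stored with PF4 in platelets, had no count at 1 or 3 days but was counted at 7 days. Gp5 had no count at 1, 3 or 7 days. The 8 markers summed to 1.84 to 3.15 FPKM at 1 day, 3.60 to 4.06 at 3 days and 3.00 to 6.65 at 7 days. A single one of them, Itga2b, was abundant enough to test and rose 1.86-fold from 1 to 7 days (edgeR adjusted p = 0.0307), against 6.04-fold for Pf4. The part of platelets in the level of Pf4 was not tested.

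Apoe was abundant from the first day and rose least of the 6. It stood at 269.6, 373, 265, 415 and 187 FPKM at 1 day, at 277, 493, 592, 529 and 175 at 3 days, and at 676, 694, 475, 809 and 858 at 7 days. All libraries at 7 days exceeded those at 1 day, and 3 days overlapped with both. The difference between 7 and 1 days was 1.13 ± 0.34 on the log2 scale (adjusted p = 0.0242); it was lost without replicate 1, 3 or 5 at 1 day or without replicate 4 or 5 at 7 days, with an adjusted p of at most 0.0603.

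Cd68, the glycoprotein of macrophage lysosomes, had similar levels at 1 and 3 days and a higher mean at 7 days that missed the threshold. It stood at 15.9, 13.9, 17.1, 15.3 and 28.7 FPKM at 1 day, at 16.7, 9.69, 10.9, 16.9 and 28.0 at 3 days, and at 27.3, 54.7, 20.9, 69.9 and 48.2 at 7 days. Replicate 5 at 1 day and replicate 5 at 3 days each lay well above their groups, and the groups overlapped. The difference between 7 and 1 days, 1.20 ± 0.44, fell just short of the threshold (adjusted p = 0.0566); it passed without replicate 5 at 1 day (0.0399), replicate 5 at 3 days, replicate 1 or 3 at 7 days or any 1 library labelled 14 days (0.0127 to 0.0492), and without all 3 of the latter (0.0115).

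Gpnmb, a glycoprotein of lysosome-rich cells, had its highest mean at 1 day. Its FPKM were 105, 67.5, 57.7, 89.9 and 58.6 at 1 day, 44.2, 51.4, 13.4, 46.6 and 45.6 at 3 days, and 47.5, 48.6, 15.5, 64.3 and 31.5 at 7 days. Each library at 1 day lay above each at 3 days, and at 7 days replicate 4 alone reached into the range at 1 day. The estimates were −0.94 ± 0.56 for 3 against 1 day and −0.96 ± 0.56 for 7 against 1 day (adjusted p = 0.396 and 0.225). The spread that these tests use includes the libraries labelled 14 days, which held Gpnmb at 30.0, 2.31 and 96.0. Without them Gpnmb fell by 0.98 ± 0.35 between 1 and 7 days (adjusted p = 0.0384), while 3 against 1 day stayed short of the threshold (0.0915). Between 3 and 7 days the estimate was −0.02 ± 0.56 and changed sign with the scaling. Of the pigment cell markers read beside it, Tyr and Mlana had no count in any library at 1 to 7 days, and the 5 markers summed to 0.350 to 1.93 FPKM there.

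**Figure D2:**
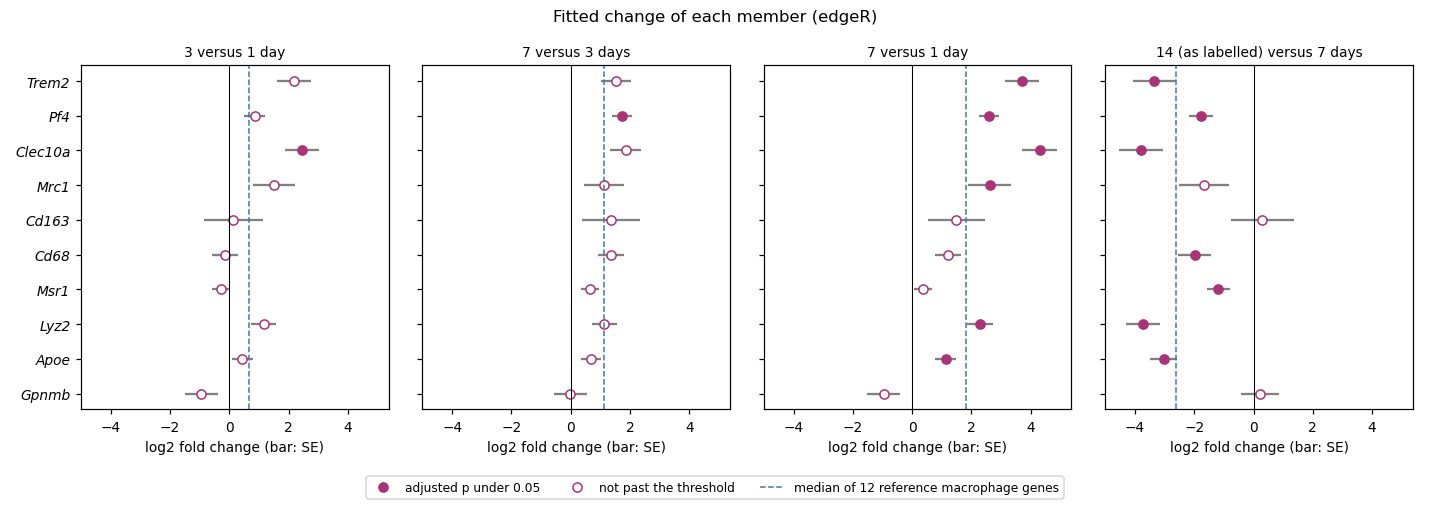
Fitted log2 fold change (horizontal axis, bar: SE) of each of the 10 genes in 4 comparisons; filled points passed an adjusted p of 0.05, and the dashed line is the median of the 12 general macrophage genes. For 7 against 1 day the filled points run from Apoe at 1.13 to Clec10a at 4.30, with Gpnmb at −0.96.

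The step from 1 to 3 days moved fewer of these genes than the whole interval. Clec10a alone was called (1 of 10, against 2.27% of all genes called and 1.16% called higher). Trem2, Clec10a and Lyz2 were higher, and Gpnmb lower, in every library at 3 days than in every library at 1 day (4 of 10, against 8.04% of all genes: 4.98% upward and 3.06% downward). From 3 to 7 days Pf4 alone was called (1 of 10, against 1.05% called and 0.717% called higher), and Trem2 and Pf4 separated without overlap (2 of 10, against 6.99% of genes upward). Leaving out the libraries labelled 14 days called Trem2 and Clec10a from 1 to 3 days (2 of 10, with 10.5% of 13991 genes called and 5.27% called higher), and Trem2, Clec10a, Cd68 and Pf4 from 3 to 7 days (4 of 10, with 7.92% called and 4.75% called higher). From 1 to 7 days that fit called 7 higher and Gpnmb lower (8 of 10, with 38.2% called and 18% called higher). In a test for any difference among 1, 3 and 7 days, Cd163 (adjusted p = 0.227) and Msr1 (0.165) were the 2 members not called, against 34.4% of all genes called.

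The order of the levels per length shifted as the obstruction went on. At 1 day Lyz2 (318 ± 98.6 FPKM, mean ± SD, n = 5) and Apoe (302 ± 91.6) led and overlapped, followed without overlap by Gpnmb (75.8 ± 21.0) and Cd68 (18.2 ± 6.00). Below Pf4 (4.88 ± 2.29), the neighbours Mrc1, Clec10a, Msr1, Trem2 and Cd163 each overlapped with the next. At 7 days Lyz2 (1660 ± 1220) and Apoe (702 ± 148) still led and overlapped, Cd68 (44.2 ± 20.1) overlapped with Gpnmb (41.5 ± 18.6), and Clec10a (37.5 ± 27.1), Pf4 (31.2 ± 11.5), Mrc1 (11.6 ± 4.98) and Trem2 (10.5 ± 3.70) followed, each overlapping with the next. Trem2 had moved from below Msr1 in 4 of 5 libraries at 1 day to above it in 5 of 5 at 3 days. It was also above Msr1 in 5 of 5 at 7 days, and the 2 genes did not overlap at 3 or 7 days.

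General macrophage genes rose as well, and the members were read against them. Of the 12, all but Cd14 (0.92 ± 0.45, adjusted p = 0.144) rose between 1 and 7 days, 11 in number, with a median of 1.83 on the log2 scale; Csf1r rose by 1.79 ± 0.27, the oxidase subunit Cybb by 1.87 ± 0.30, Aif1 by 1.91 ± 0.30 and the Fc receptor chain Fcer1g by 1.92 ± 0.34 (adjusted p from 0.000365 to 0.00104). Their summed FPKM was 196 to 310 at 1 day, 262 to 466 at 3 days and 385 to 1383 at 7 days. Relative to the mean of these 12, on the log2(FPKM+1) scale and with no test, Clec10a lay at −2.56 ± 0.35 at 1 day, −1.16 ± 0.43 at 3 days and −0.51 ± 0.47 at 7 days (means over 5 libraries, with SD), every later library above every library at 1 day. Gpnmb lay at 2.27 ± 0.55, 0.76 ± 0.77 and −0.26 ± 0.53 on this scale, and each library at 7 days lay below each at 1 day. Cd68 was lower relative to the 12 in each library at 3 days (−0.45 ± 0.33) and 7 days (−0.16 ± 0.09) than in any at 1 day (0.26 ± 0.18). Lyz2 was higher at 3 days (4.97 ± 0.18) than at 1 day (4.31 ± 0.30) in every library and overlapped with 1 day at 7 days, and Apoe overlapped throughout. Trem2, Mrc1, Cd163 and Pf4 also overlapped between all 3 durations on this scale, and Msr1 was lower in each library at 3 and 7 days than in any at 1 day. Adding 1 before the logarithm shortens the own change of Trem2, Cd163, Msr1, Mrc1 and Clec10a, with means of 0.392 to 1.78 FPKM at 1 day. Where such a gene rose from 1 to 7 days, its rise against the 12 is understated. A fall against the 12 over that interval, as for Msr1, is overstated.

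**Figure D3:**
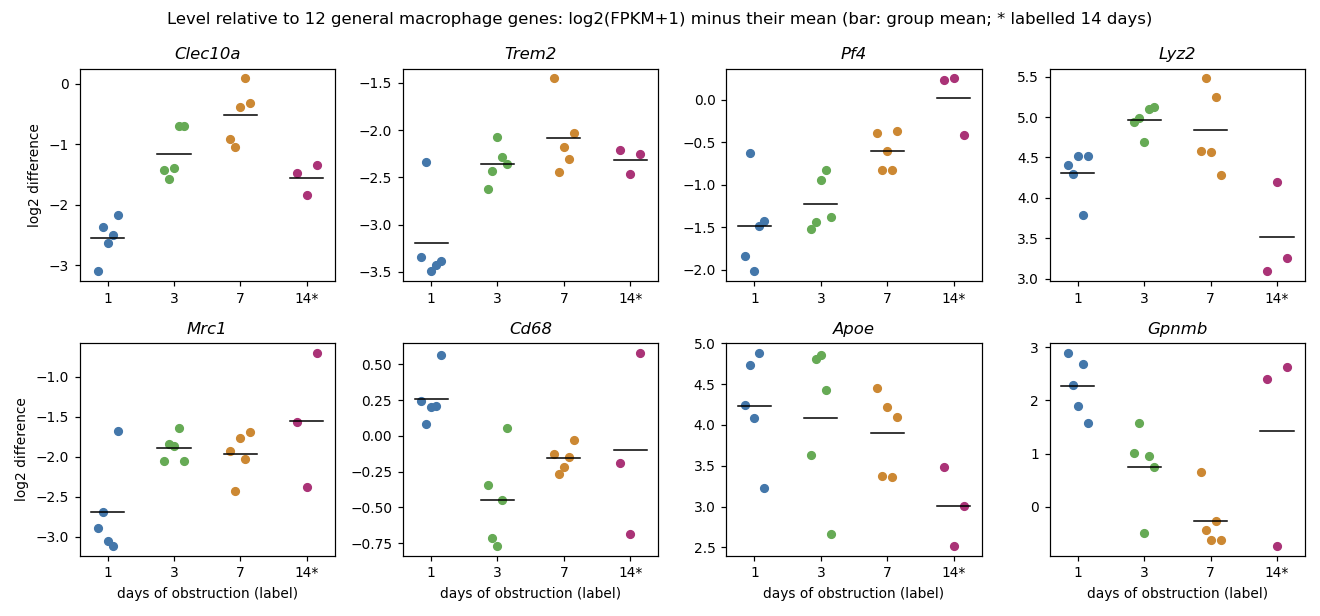
Difference between log2(FPKM+1) of a member and the mean of the 12 general macrophage genes (vertical axis) in each library by labelled duration, with a bar at the group mean. The mean of Clec10a was −2.56 at 1 day and −0.51 at 7 days, and that of Gpnmb 2.27 and −0.26.

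As a plain ratio of FPKM, Gpnmb stood at 4.00 to 10.1 times Csf1r at 1 day (median 7.31), 0.726 to 3.39 times at 3 days (median 2.24) and 0.731 to 1.89 times at 7 days (median 0.757). Its ratio to Cd68 had medians of 4.85, 2.65 and 0.889 at the same times. The ratio of Lyz2 to Apoe overlapped among all 3, with medians of 1.12, 1.59 and 1.27.

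Across the 15 libraries at 1 to 7 days, 9 of the members were positively correlated with each other, and Gpnmb mostly was not with them, a view in which the durations set much of each r. Pearson's r of log2(FPKM+1) over the 36 pairs without Gpnmb ran from 0.35 to 0.96 with a median of 0.74, and over the 9 pairs with Gpnmb from −0.42 to 0.18 with a median of −0.31. All points share their library, its depth and its mix of cells. Taken as deviations from the mean of the day, r ran from −0.35 to 0.91 without Gpnmb (median 0.61) and from −0.01 to 0.47 with it (median 0.25). Within days the lowest values belonged to Apoe, at −0.35 with Cd68, −0.17 with Lyz2, −0.15 with Mrc1, −0.13 with Clec10a and −0.01 with Cd163, so that Gpnmb was not the one exception there. Trem2 and Pf4 were the closest pair (r = 0.964), and Mrc1 and Clec10a came next to each other (0.955).

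Among all genes with a mean of at least 1 FPKM over these 15 libraries, the closest to Trem2 were Tnfaip8l2 (r = 0.964), Pf4 and Clec10a (0.948). Those closest to Clec10a were the properdin gene Cfp (0.968), Tnfaip8l2 (0.966) and Slc10a6 (0.962), and those closest to Lyz2 were the cathepsin gene Ctss (0.971), Lyc2 (0.965) and Alox5ap (0.963), which encodes an activator of leukotriene synthesis. Mrc1 was closest to Sorbs3, Ltbp3 and Tacc1 (0.972, 0.972 and 0.969), and Cd68 to Ncf4, Il1b and Mnda (0.952, 0.938 and 0.935). Cd163 was closest to Cfd (0.890), which encodes the complement protease adipsin and is abundant in fat; Cfd stood at 18.1 FPKM in replicate 5 at 1 day against 0.252 to 3.25 in the other 4. The genes closest to Gpnmb were Slco3a1 (0.923), Tprg1l (0.917) and Tapbp (0.916), and no other member came above 0.185 with it.

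**Figure D4:**
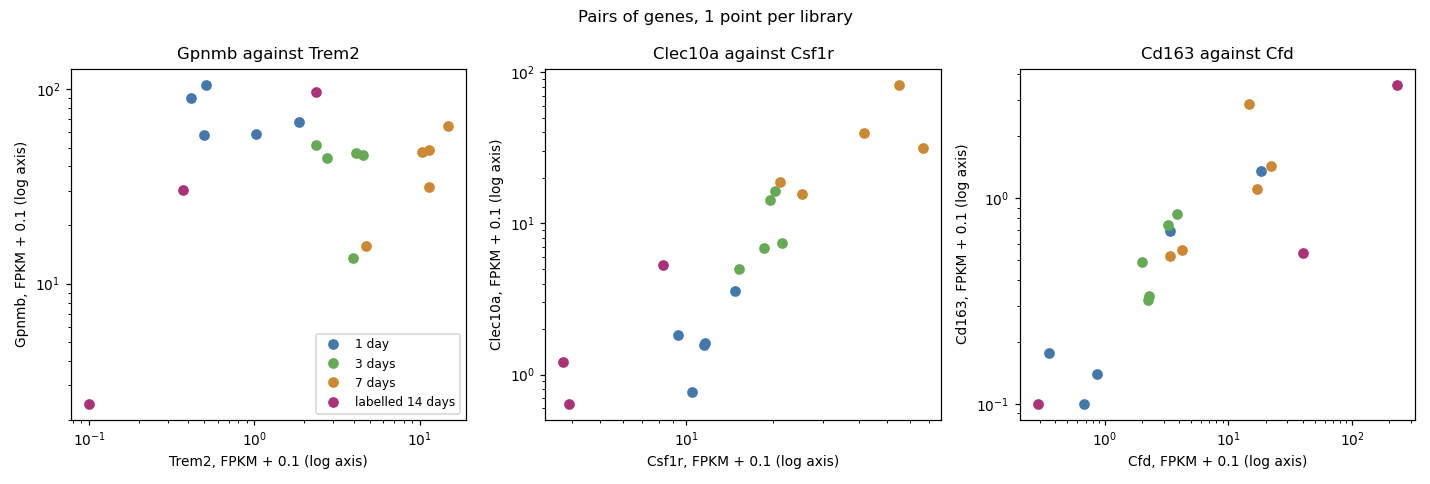
FPKM plus 0.1 on log axes, with 1 point per library coloured by labelled duration, for Gpnmb against Trem2, Clec10a against Csf1r, and Cd163 against Cfd. Gpnmb was highest at 1 day, where Trem2 was at most 1.77 FPKM, and the point at the upper right of the third panel is replicate 3 labelled 14 days, with Cd163 at 3.47 and Cfd at 232.

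Other genes of the TREM2-positive, lipid-handling programme were called in both directions, 5 of 20 between 1 and 7 days, a share near the 25.6% of all genes. In the fit of all 18 libraries the cholesterol exporter Abca1 rose (0.91 ± 0.24 on the log2 scale, adjusted p = 0.0117), and 4 fell: the lipid droplet coat Plin2 by 1.54 ± 0.27, the cathepsins Ctsl by 1.38 ± 0.43 and Ctsb by 0.92 ± 0.16, and the fatty acid carrier Fabp5 by 0.79 ± 0.25. The median of the 20 was −0.03. With the libraries labelled 14 days omitted, 4 rose and 5 fell, where 38.2% of all genes were called. Spp1 (0.63 ± 0.20, edgeR adjusted p = 0.0225), the lipase gene Lpl (1.35 ± 0.42, 0.0207) and the cathepsin gene Ctsd (0.51 ± 0.18, 0.0378) joined Abca1. Plau (−0.84 ± 0.18, edgeR adjusted p = 0.00262) joined the 4 that fell. Over all 18 libraries, Fabp5 and Ctsb had already fallen at 3 days, by 1.02 ± 0.25 and 0.66 ± 0.16 (edgeR adjusted p = 0.0447 and 0.0443). The fit without the libraries labelled 14 days called 6 of the 20 lower and none higher from 1 to 3 days, where 10.5% of all genes were called. This list includes Spp1, Ctsb and Plin2, which stood at 6639 ± 942, 1426 ± 253 and 188 ± 50.3 FPKM at 1 day, far above Trem2 at 0.764 ± 0.613 (mean ± SD, n = 5).

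Counts in the following lists stand beside 25.6% of all genes called, and 12.3% called higher, between 1 and 7 days. Of 11 tested genes of resident and alternatively activated macrophages, 4 rose between 1 and 7 days and none fell, with a median of 1.62: the scavenger receptor Stab1 (2.10 ± 0.62), the folate receptor Folr2 (1.85 ± 0.50), the sialic acid receptor Siglec1 (2.19 ± 0.74) and the receptor kinase Axl (1.62 ± 0.26). Retnla, a classical product of alternatively activated rodent macrophages, had no count in any library. Of 12 tested genes of inflammatory monocytes and macrophages, 4 also rose and none fell, with a median of 0.60: the Fc receptor Fcgr1a (1.66 ± 0.34), the costimulator Cd86 (1.42 ± 0.35), Il18 (1.30 ± 0.30) and Il1b (1.59 ± 0.53). Among 16 transcription factors and signalling genes of macrophages, 8 rose and none fell, with a median of 0.79. They included Spi1, which encodes PU.1 (1.20 ± 0.27), Irf8 (1.41 ± 0.28), Hcst (1.77 ± 0.40) and the TREM2 adaptor Tyrobp (1.27 ± 0.28), all with adjusted p of at most 0.00448. Mitf, whose protein binds the M-box, was at 0.59 ± 0.25 (adjusted p = 0.0943), and at 0.57 ± 0.20 with the libraries labelled 14 days omitted, which passed (0.0390). Between 3 and 7 days Spi1 (1.17 ± 0.27), Irf8 (1.25 ± 0.28) and, among the general macrophage genes, Aif1 (1.55 ± 0.30) were called (adjusted p from 0.0282 to 0.0495). The fit that omits the libraries labelled 14 days called 8 of the 12 general macrophage genes and 5 of the 16 factors and signalling genes higher from 3 to 7 days, where 4.75% of all genes were. From 1 to 7 days that fit called 5 of the 11 resident genes higher and 1 lower. It called 5 of the 12 inflammatory genes higher and none lower, with 18% of all genes called higher. From 1 to 3 days it called 1 of the 12 inflammatory genes lower and none higher. Over all genes, 725 of 13991 were called lower and 10.5% were called in either direction, so that 1 gene does not stand out.

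Markers of some other leukocytes and of fibroblasts moved over the same interval, in which 25.6% of all genes were called and 12.3% called higher. All 6 tested T and NK cell markers rose between 1 and 7 days (median 2.14 on the log2 scale); the 7 that were found summed to 8.27 to 14.4 FPKM at 1 day, 8.91 to 29.1 at 3 days and 22.5 to 110 at 7 days, and each had a count in each of these groups. The highest sum belonged to replicate 4 at 7 days, which also held the highest Trem2, Gpnmb, Mrc1, Clec10a, Msr1, Cd68 and Pf4 of its group. Of 6 tested dendritic cell markers 4 rose. Some dendritic cells also carry Clec10a. Of 5 tested B and plasma cell markers 1 rose and none fell (median 1.18). Of 4 tested neutrophil markers none was called, with estimates from −2.81 to 1.12 on the log2 scale. Of 7 fibroblast and mesangial cell markers 4 rose and none fell (median 0.97), and the 7 summed to 79.8 to 169 FPKM at 1 day, 100.3 to 153 at 3 days and 236 to 393 at 7 days. The part of these other cells in the members' levels was not tested.

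In the libraries labelled 14 days, 7 of the 10 genes were lower than at 7 days and none was higher (38.3% of all genes called, 16.9% lower and 21.4% higher). Lyz2 was 13.3-fold lower, at 49.2, 101 and 149 FPKM. Apoe was 8.15-fold lower, at 64.8, 30.6 and 125. Both genes lay below every library at 1, 3 and 7 days. Trem2 (10.2-fold lower in the fit), Clec10a (13.9-fold) and Pf4 (3.41-fold) also lay below all libraries at 7 days (5 of 10 genes in all without overlap, against 26.6% of genes downward), and Cd68 and Msr1 were called lower with overlap (adjusted p from 0.000162 to 0.0213 for the 7). The sizes for Trem2, Clec10a and Cd68 rest on replicate 3 labelled 14 days: without it their estimates moved from −3.34, −3.80 and −1.98 to −5.70, −5.09 and −3.33 on the log2 scale, the first of these against 1 library without a Trem2 count. Without replicate 1 labelled 14 days neither Cd68 (0.0519) nor Msr1 (0.102) was called, and without replicate 4 at 7 days Msr1 was not (0.0520). The general macrophage genes were called lower in 11 of 12 cases, with a median of −2.61 on the log2 scale against −1.87 for the 10 members. The scale may matter here. A fit on log2(FPKM+1), over genes with a mean of at least 0.5 FPKM, gave a median change of −0.26. With the factors used for the test the median over the 14511 genes tested was 0.07. These medians also differ in the genes covered and in the added 1, so their gap is not due to scaling alone.

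Replicate 3 labelled 14 days did not follow the other 2. It held Gpnmb at 96.0 FPKM against 30.0 and 2.31, Mrc1 at 8.63 against 0.990 and 0.0680, Cd163 at 3.47 against 0.443 and 0, Cd68 at 22.4 against 4.17 and 2.44, and Trem2 at 2.28 against 0.271 and 0. Summed endothelial markers were 422 FPKM in it against 181 and 40.4, and fat cell markers summed to 890 against 218 and 611. Each list had a count for every found gene in this group. Little of the 611 in replicate 2 came from Plin1 (0 FPKM), Cfd (0.188) or Adipoq (3.65), which stood at 142, 232 and 96.9 in replicate 3. The part of those cells was not tested. With this library as the only one labelled 14 days, Trem2, Clec10a, Lyz2 and Apoe were still called lower than at 7 days (4 of 10, with 17.4% of all genes called lower), and without it 8 of 10 were called lower, Mrc1 among them (16.4% of all genes). Whether the group reflects the duration or these differences in tissue cannot be told apart.

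Against 1 day, Lyz2 (2.70-fold lower, adjusted p = 0.0436) and Apoe (3.73-fold lower, 0.00365) were the only members called in the libraries labelled 14 days (2 of 10, against 32% of all genes called and 14.3% called lower). Both lay below all libraries at 1 day, as did 20.9% of all genes. The call of Lyz2 was lost without replicate 1, 2, 3 or 5 at 1 day, replicate 1, 2 or 4 at 3 days or replicate 1 or 3 labelled 14 days, with an adjusted p of up to 0.154. Without replicate 3 labelled 14 days, Gpnmb, Cd68 and Msr1 were called lower than at 1 day (adjusted p from 0.00719 to 0.0410). The signs for Trem2, Mrc1, Cd163 and Clec10a depended on replicate 3: without it their estimates were −2.01, −1.47, −0.56 and −0.80, against 0.35, 0.93, 1.79 and 0.50 with it.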

How the data were processed

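Renal parenchyma RNA was captured on oligo-dT beads, per the labels' protocols. The submitters' processing notes name fastp 0.19.7 and HISAT2 2.0.4; how reads were counted, whether by strand, and on which build and annotation is not given in the sources used here. The authors deposited a read count and an FPKM value per gene and library. From these, counts were filtered (filterByExpr, minimum count 10, minimum total 15; 14511 of 30957 genes kept), normalised with TMM and tested by the quasi-likelihood method of edgeR 4.0.16 under R 4.3.3, with all 18 libraries in 1 model with a coefficient per labelled duration. Calls needed a p under 0.05 after Benjamini-Hochberg adjustment over all genes tested, and 5 comparisons were made. FPKM were used for levels, ranges, ratios and correlations.

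The 10 members and the 18 other lists (173 of 176 genes found, 1 by an older symbol; Nos2, Klrb1a and Pecam1 were not analysed here) were chosen with earlier results of these data known. Some genes, such as Tyrobp, stand in more than 1 list. Named are all members; of other lists up to 4 genes with the smallest p for 7 against 1 day, and genes called where 5 or fewer of a list were called; by likeness, the closest member and the 3 closest genes. Mitf (for the M-box), Spp1, Lpl, Ctsd and Plau (called without the libraries labelled 14 days) were named after their values were seen. No 2 libraries of the same labelled duration agreed within sampling noise (lowest chi-square per degree of freedom 6.83). The test was also tried on simulated counts. Alternatives were DESeq2 1.42.0, other scaling and filters, limma 3.58.1 on FPKM, fits of 2 groups, a replicate block and libraries left out; keeping 1 library labelled 14 days at a time was added after seeing the data.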

Additional observations from a re-analysis of the deposited data

Results flagged for a closer look

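In 30 groups of 5 libraries (10 genes at 1, 3 and 7 days), the gap between the most extreme library and its nearest neighbour was set against the range of the group on the log2(FPKM+1) scale. It exceeded the critical share of 0.71 in 3 groups, where chance gives about 1 in 20. Gpnmb was lowest in replicate 3 at 3 days, at 13.4 FPKM against 44.2 to 51.4 in the other 4 (gap over range 0.887). Mrc1 was highest in replicate 5 at 1 day, at 5.26 FPKM against 0.627 to 1.18 (0.784). Cd68 was highest in the same library, at 28.7 FPKM against 13.9 to 17.1 (0.721). Replicate 3 at 3 days also held the proximal tubule markers at a summed 2205 FPKM, against 384 to 1173 in its group, and Havcr1 at 188 against 536 to 559. The part of the tissue mix in these values was not tested.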

How the results depend on the processing

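Of the member counts over all settings, 118 stayed within 1.5 times and 39 did not; for single members and comparisons, 1415 values kept their direction and side of the threshold, 59 passed it newly, 44 no longer passed and 46 changed sign. For 3 against 1 day, where 1 member was called, DESeq2 and limma on log2(FPKM+1) called 2, limma without a filter 0, the fit of 2 groups 3, the fit without the libraries labelled 14 days 2, and that without replicate 5 at 1 day as well 3; leaving out 1 library gave 0 to 2. For 7 against 3 days (1 called), these gave DESeq2 4, 2 groups 5, without the libraries labelled 14 days 4, and also without replicate 5 at 1 day 5, with 0 to 3 for single libraries left out. For 7 against 1 day (6 called) single libraries left out gave 5 to 7. For 14 (as labelled) against 7 days (7 called), replicate 3 alone gave 4 and libraries left out 5 to 8. For 14 (as labelled) against 1 day (2 called), the fit of 2 groups gave 1, the replicate block 1, replicate 1 alone 4, and libraries left out 1 to 4. Where counts fell the cause was not tested.

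Signs changed only for estimates that were not called in the reported fit. Cd68 for 3 against 1 day became 0.040 without the libraries labelled 14 days and replicate 5 at 1 day, where Cd163 was 1.39 (with single libraries left out −0.44 to 0.046 for Cd68 and −0.18 to 1.37 for Cd163). Gpnmb for 7 against 3 days became 0.0013 with upper-quartile factors, 0.030 with limma at a pseudocount of 1 (with or without a filter) and 0.031 at 0.1 (−0.25 to 0.19 with libraries left out). For 14 (as labelled) against 7 days, limma at pseudocounts of 1 (with or without a filter) and 0.1 gave Gpnmb −0.84 and −0.97 and Cd163 −0.14 and −0.87; replicate 1 alone gave −0.20 and −1.16, and replicate 2 alone −3.54 and −8.33; with libraries left out Gpnmb ran from −1.06 to 0.78 and Cd163 from −2.04 to 0.87. For 14 (as labelled) against 1 day, limma gave Trem2 −0.071 at a pseudocount of 1 (with or without a filter) and −0.71 at 0.1, where Mrc1 was −0.24 and Clec10a −0.055. Replicate 1 alone gave Trem2 −1.26, Mrc1 −0.72 and Clec10a −0.54, replicate 2 alone −5.75, −4.15 and −1.19 with Cd163 at −6.84, and replicate 3 alone Gpnmb 0.38 and Cd68 0.33; with libraries left out Trem2 ran from −2.01 to 0.86, Mrc1 from −1.47 to 1.89, Cd163 from −0.56 to 3.03 and Clec10a from −0.80 to 0.91. A lone library is assumed to vary like the other groups.

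Deviations from the group mean had a median r of 0.04 between libraries with the same replicate number (24 pairs, 10 above 0.1). Between libraries with other numbers the median was −0.02 (96 pairs, 29 above 0.1). These values cannot show whether the numbers pair samples. Besides the lost call for 14 (as labelled) against 1 day, the replicate block left 6 of 7 calls for 14 (as labelled) against 7 days. Low counts limit Trem2, Cd163 and Pf4 most, with at most 12, 59 and 21 counts a library at 1 day.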
